A study of Mus musculus with 16 samples.

Results

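Expression of 9 imprinted and neighbouring genes of distal mouse chromosome 7 was followed in mouse embryonic stem cells (mESCs) of 3 lines, each grown in serum and in 2i medium. The genes were H19 and Igf2 of the Igf2-H19 domain, and Kcnq1ot1, Cdkn1c, Phlda2, Slc22a18, Nap1l4, Tssc4 and Cd81 of the Kcnq1 domain. They were chosen by name, as every non-control probe whose RefSeq identifier belonged to one of them, from 21155 named genes on the array. This gave 12 probes, of which 10 were bright enough to be tested, and at least 1 probe was tested for each of the 9 genes, among 13918 named genes tested in all.

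The study asked whether mESCs with different DNA methylation reach the ground state in 2i alike. Each of the 16 one-colour Agilent arrays held RNA of 1 sample, in 6 groups, and the labels did not say whether replicates were separate cultures, so p-values measured the spread between these samples, which may be technical. J1 is a male wild-type line (J1-serum, n = 4, and J1-2i, n = 3). TKO, made from J1, lacks Dnmt1, Dnmt3a and Dnmt3b and so the enzymes that write and copy DNA methylation (TKO-serum, n = 2, and TKO-2i, n = 3). 3B3-3l, also made from J1, lacks Dnmt3a and Dnmt3b and carries constitutive transgenes for Dnmt3b and Dnmt3l, and served as the constitutively methylated line (n = 2 in serum and n = 2 in 2i). Serum medium was DMEM with fetal calf serum and 500 U/ml LIF. The 2i groups spent 2 weeks in N2B27 with the MEK inhibitor PD0325901 at 1 uM, the GSK3 inhibitor CHIR99021 at 3 uM and 1000 U/ml LIF. J1 in serum grew on inactivated feeder cells and all other cultures were feeder free, so line and feeder layer cannot be told apart between J1-serum and the other serum groups, nor medium and feeder layer within J1.

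The probes for the deleted genes were lower in TKO than in J1, though not all were silent. On the log2 scale, Dnmt1 differed by -3.48 between TKO-serum and J1-serum, no TKO or 3B3-3l array had Dnmt3a well above background, and the mean log2 level of Dnmt3b was 5.53 in 3B3-3l-serum against 2.96 in J1-serum and -0.34 in TKO-serum. Dnmt1 and Dnmt3b stayed well above background on all TKO arrays, and Dnmt3b in TKO-2i, at -0.64, was nearer to J1-2i, at 0.63. Whether their probes lie in the deleted part was not tested. The mean log2 level of Dnmt3l was 5.85 in 3B3-3l-serum and 4.38 in 3B3-3l-2i. It was 4.64 and 0.74 in J1 and 5.54 and 2.94 in TKO, in serum and 2i. Its probe was saturated on both arrays of 3B3-3l-serum and of TKO-serum, so these 2 levels are not exact. Of the 10 mESC marker genes listed for the check (Pou5f1, Nanog, Sox2 and others), 10 were well above background on every array. The fibroblast list of 20 genes, 16 of them tested, stood highest in J1-serum, where its mean log2 level was 1.63 to 1.80 per array, against -0.36 to -0.18 in TKO-serum, 0.39 to 0.55 in 3B3-3l-serum and -1.62 to -0.97 over the 2i arrays. Primitive endoderm markers were also highest in J1-serum (1.19 to 1.45, with 10 of 10 well above background) and lower in TKO-serum (-1.88 to -1.60) and 3B3-3l-serum (-1.84 to -1.77), and in 2i 1 to 3 of the 10 were well above background. There were 3 slides, scanned over 2 days. The third slide, the one scanned on the second day, held J1-serum replicate 1 and all 4 of the 3B3-3l arrays. 3B3-3l is thus compared across slides and scan days with TKO in both media and with J1 in 2i. In serum, only J1-serum replicate 1 shared its slide.

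Both domains are ruled by an imprinting control region that is methylated on the allele from one parent. At the Igf2-H19 domain the control region, methylated on the paternal copy, binds the insulator protein CTCF on the other copy. The maternal allele then makes H19, a noncoding RNA abundant in embryonic tissues, and the paternal allele makes Igf2, a fetal growth factor. At the Kcnq1 domain the unmethylated paternal control region is the promoter of Kcnq1ot1, a long antisense RNA that silences neighbouring genes in cis, so that Cdkn1c, Phlda2 and Slc22a18 are made chiefly from the maternal allele. Nap1l4, Tssc4 and Cd81 lie further out and are known for imprinting mainly in the placenta. The array reads the sum of both alleles, in all cells of a culture together, so a loss of imprinting cannot be seen directly, and fewer expressing cells cannot be told apart from less RNA per cell.

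The H19 results turn on the probes that read it, so their 60-base sequences are given here as the study lists them, in lower case with no base marked. The first matched H19 by its RefSeq identifier, and the other 5 carried the gene symbol in its place.
A_55_P1961127: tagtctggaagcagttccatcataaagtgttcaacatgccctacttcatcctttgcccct
A_30_P01021588: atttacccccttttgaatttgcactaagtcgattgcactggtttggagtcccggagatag
A_30_P01025068: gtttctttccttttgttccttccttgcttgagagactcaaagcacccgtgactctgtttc
A_30_P01026972: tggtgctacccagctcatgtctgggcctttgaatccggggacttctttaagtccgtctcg
A_30_P01028007: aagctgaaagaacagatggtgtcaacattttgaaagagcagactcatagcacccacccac
A_30_P01028827: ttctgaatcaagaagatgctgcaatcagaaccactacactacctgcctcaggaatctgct
The longest run of bases that any of the 6 shared with another, on either strand, was 7, so they were separate readings of the gene rather than copies of 1 probe.

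Kcnq1ot1 and Phlda2 have a promoter window in RefSeq (GRCm38.p6, 250 bases before the start site to 50 after it) that shows where DNA methylation could lie. They are printed with every CpG, the site of DNA methylation, in capitals. The first is the Kcnq1ot1 promoter at chr7:143296498-143296797, minus strand, and the second the Phlda2 promoter at chr7:143502475-143502774, minus strand.
Kcnq1ot1: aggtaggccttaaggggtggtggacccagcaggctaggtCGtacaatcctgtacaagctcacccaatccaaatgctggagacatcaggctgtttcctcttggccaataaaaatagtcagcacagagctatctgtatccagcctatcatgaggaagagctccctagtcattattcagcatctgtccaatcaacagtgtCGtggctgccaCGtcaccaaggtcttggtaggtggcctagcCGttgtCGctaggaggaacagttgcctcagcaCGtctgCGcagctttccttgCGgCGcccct
Phlda2: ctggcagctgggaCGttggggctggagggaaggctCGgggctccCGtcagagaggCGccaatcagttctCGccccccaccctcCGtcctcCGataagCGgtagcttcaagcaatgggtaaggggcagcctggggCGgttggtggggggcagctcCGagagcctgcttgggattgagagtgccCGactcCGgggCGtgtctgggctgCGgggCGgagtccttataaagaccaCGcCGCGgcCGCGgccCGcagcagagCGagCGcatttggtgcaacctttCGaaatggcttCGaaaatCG
The Kcnq1ot1 window held 9 CpGs and the Phlda2 window 26, against a median of 7 over 32851 windows, and 16.9% of all windows held as many as Phlda2. Slc22a18 held 2 and the 4 Igf2 windows 2 to 24. The letters CCAAT, on either strand, occurred 3 times in the Kcnq1ot1 window, and 3.37% of all windows held 3 or more, while 37.4% held at least 1. The letters TGCCGC, read by the imprinting factor ZFP57, occurred in neither window on either strand, and in 11.6% of all windows. Of the 9 genes, 6 had a window.

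Levels are log2 intensities minus the 75th percentile of the array, so 0 is the 75th percentile itself and each unit is a doubling. Well above background is the scanner software's flag for a spot clearly brighter than its surroundings. A gene was called changed where the adjusted p was 0.05 or less (limma with Benjamini-Hochberg adjustment over all tested probes) and the change 2-fold or more. From serum to 2i, 5 of the 9 genes were called in J1, 3 in TKO and 5 in 3B3-3l, where 22.8%, 15.9% and 13.6% of all named genes were called. H19, Cdkn1c and Phlda2 fell in all 3 lines, Igf2 fell in J1 and 3B3-3l, Kcnq1ot1 rose in J1 and Slc22a18 rose in 3B3-3l. By the lower direction alone, 4, 3 and 4 of the 9 fell, beside 12.7%, 9.12% and 7.98% of all named genes. The median log2 change of the 9 was 0.09 in J1, 0.25 in TKO and -0.42 in 3B3-3l, where that of all named genes was 0.05, 0.07 and 0.00.

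**Figure D1:**
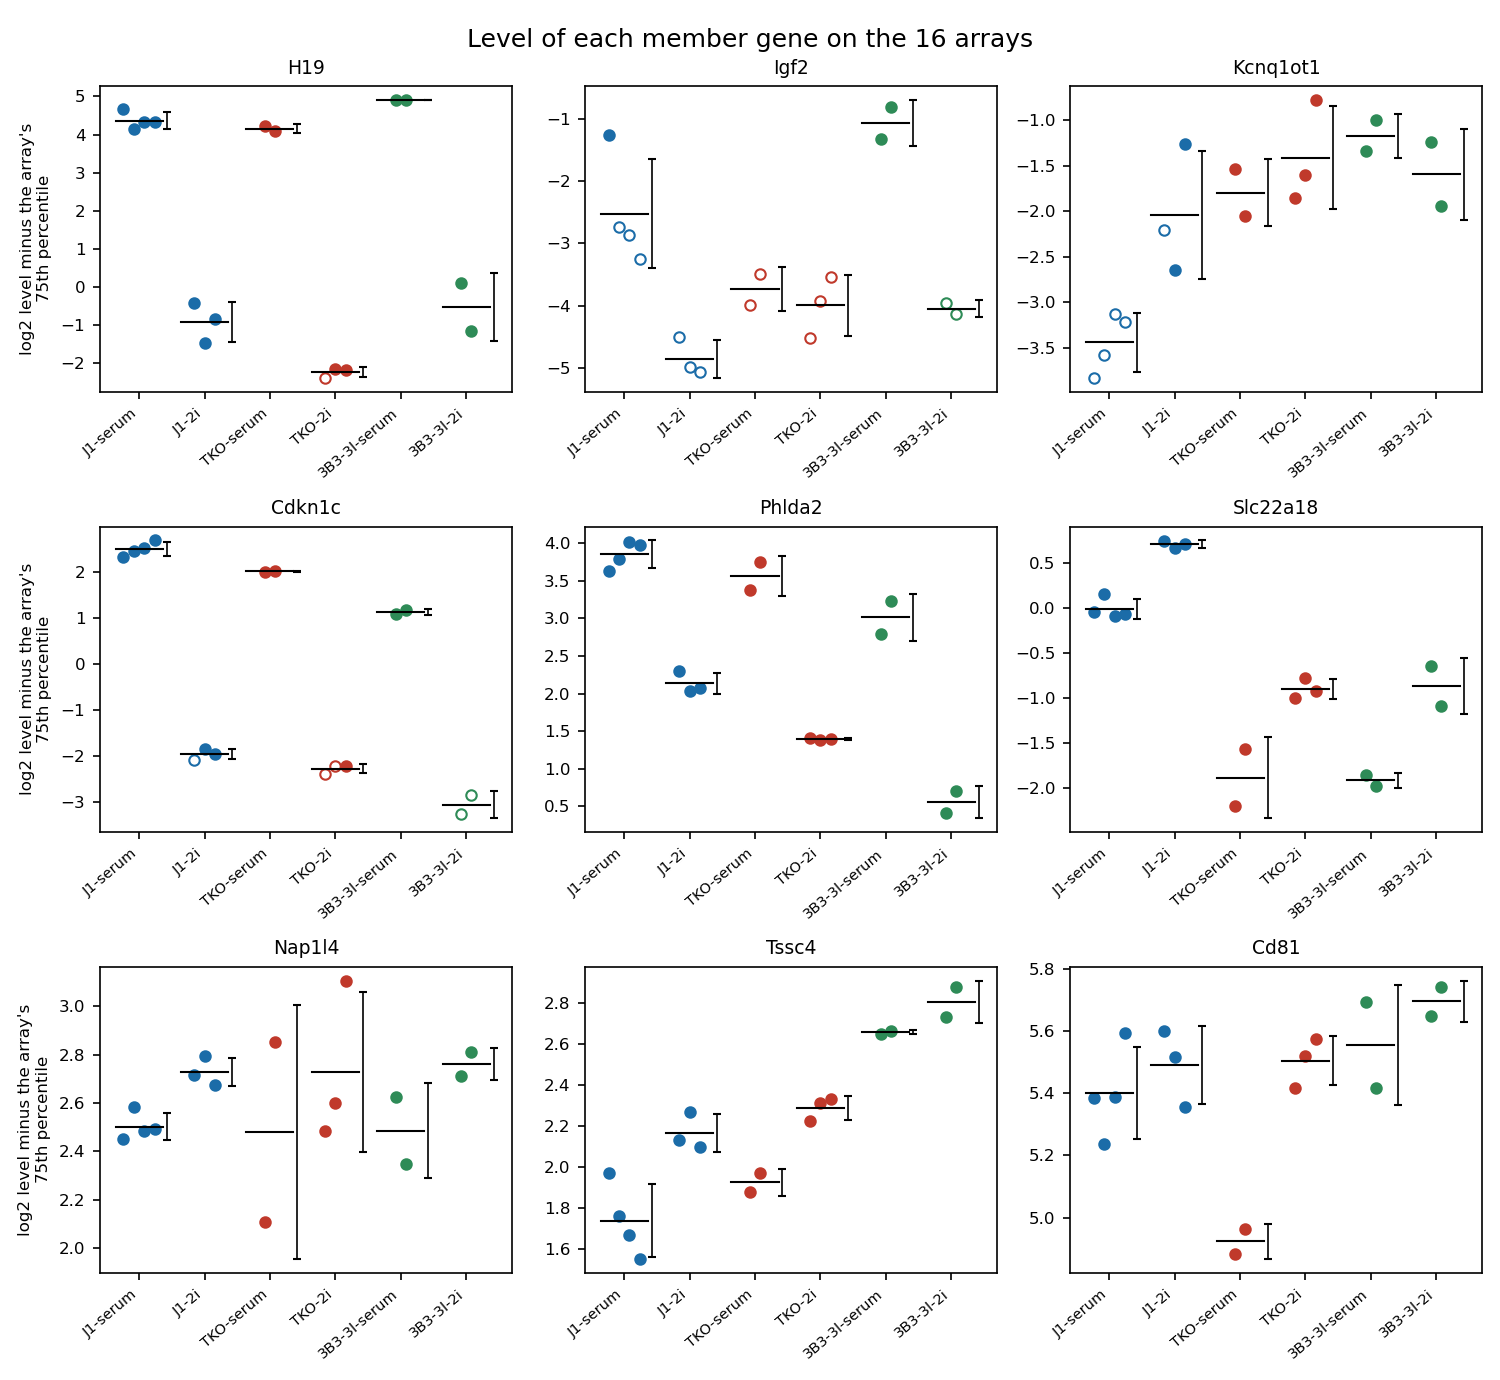
Each panel plots the log2 level of 1 gene, set against each array's 75th percentile, in the 6 groups of line and medium. Points are arrays (filled where the probe was well above background, open where it was not), horizontal lines are group means and bars beside them are ± SD. H19 and Cdkn1c separated by medium in every line, Slc22a18 was higher in J1 than in the other lines, and Nap1l4 and Cd81 stayed within about 1 log2 unit.

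H19 was among the bright genes of the serum cultures and far lower in 2i. In J1-serum its level was 4.68, 4.14, 4.32 and 4.32 on the 4 arrays, and in J1-2i -0.43, -1.47 and -0.83. It was 4.23 and 4.08 in TKO-serum and -2.38, -2.14 and -2.18 in TKO-2i. In 3B3-3l it was 4.91 and 4.90 in serum and 0.10 and -1.15 in 2i. All serum arrays thus lay at 4.08 or above and all 2i arrays at 0.10 or below, with no overlap in any line. The fall was 38.7-fold in J1 (log2 change -5.27, SE 0.28, adjusted p = 8.3e-09), 83.9-fold in TKO (-6.39, SE 0.33, adjusted p = 2.0e-08) and 43.0-fold in 3B3-3l (-5.43, SE 0.36, adjusted p = 2.4e-07). The probe stayed well above background on 15 of 16 arrays, the exception being TKO-2i replicate 1. The difference of the TKO from the J1 response was -1.12 (SE 0.43, adjusted p = 0.078) and that of 3B3-3l from J1 was -0.15 (SE 0.46, adjusted p = 0.84). Neither passed the test.

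The other 5 H19 probes fell too. Their measured log2 changes ran from -7.52 to -4.26 in J1, from -7.29 to -5.39 in TKO and from -7.19 to -4.83 in 3B3-3l, and all 15 were called. Most of these are bounds. Probe A_30_P01021588 was not well above background on any J1-2i array, which makes its fall in J1 at least 116-fold, and the falls of the 4 dimmer probes in J1 were at least 19.2- to 61.7-fold. Those 4 were well above background on no 2i array of the other lines either, where their falls were at least 30.6- to 81.2-fold in TKO and at least 11.4- to 60.0-fold in 3B3-3l. The probes differed on the order of the lines in 2i. On the bright probe, H19 was 2.50-fold lower in TKO-2i than in J1-2i (-1.32, SE 0.30, adjusted p = 0.0064), whereas A_30_P01021588 was at least 1.80-fold higher there (adjusted p = 0.027) and at least 2.51-fold higher in 3B3-3l-2i. The other 4 symbol-named probes were well above background on no 2i array, so they cannot order the lines there. Between 3B3-3l and TKO in 2i, A_30_P01021588 differed by 0.48 (SE 0.49, adjusted p = 0.51), with overlapping groups. A second RefSeq-matched H19 probe was well above background on no array and was not tested.

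**Figure D2:**
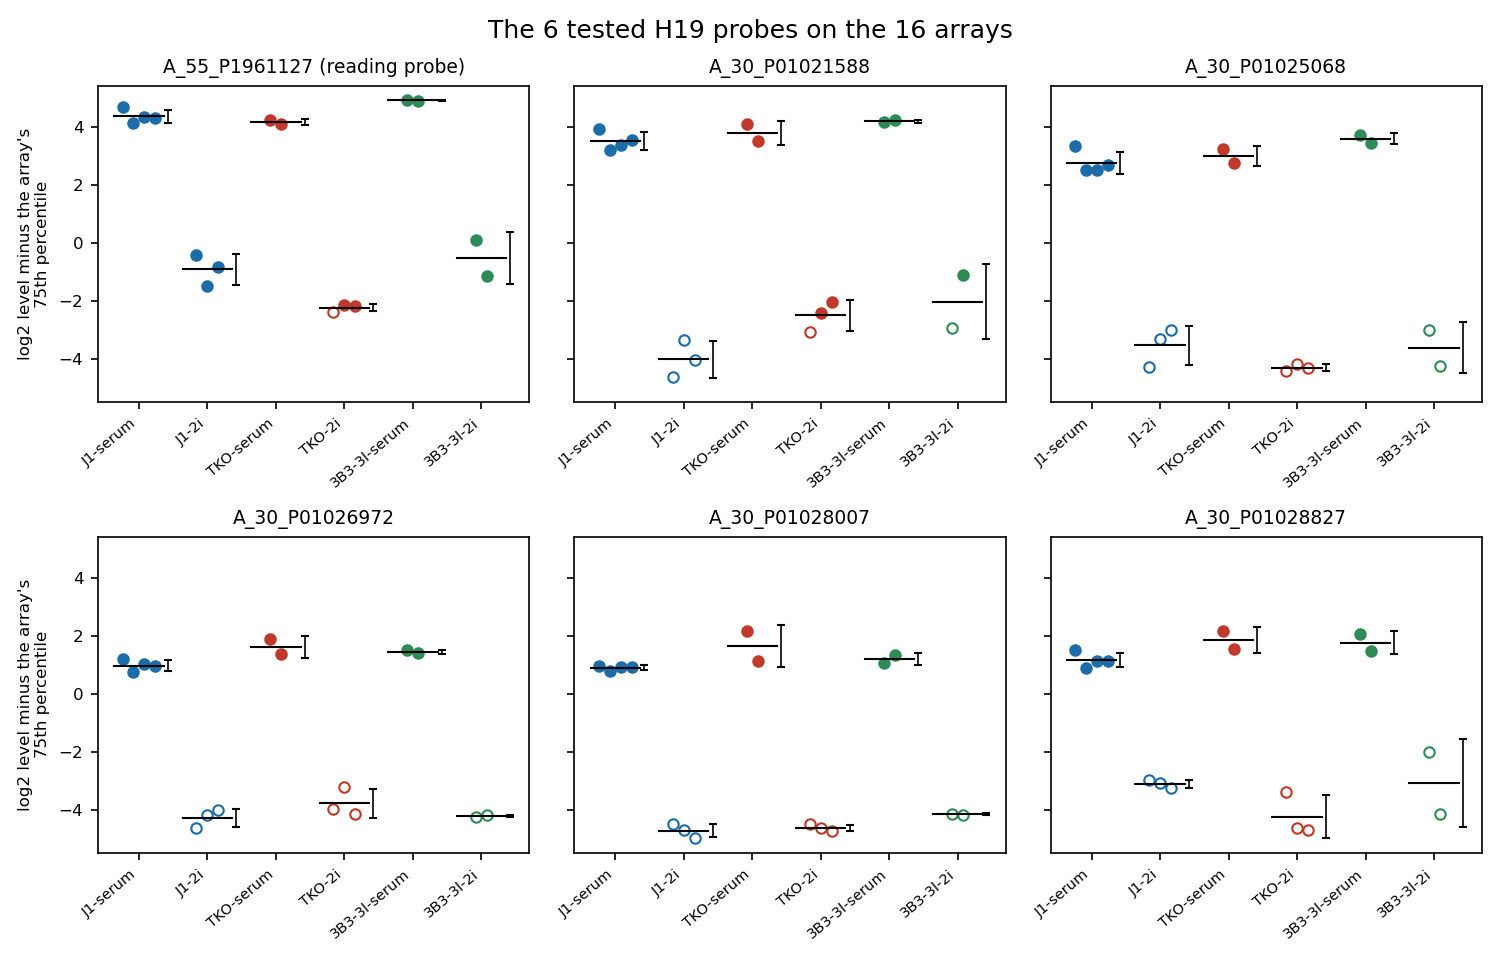
Each panel plots the log2 level of 1 of the 6 tested H19 probes, set against each array's 75th percentile, in the 6 groups. Points are arrays (open where not well above background), lines group means and bars ± SD. All 6 probes were lower in 2i in every line, and the bright reading probe and A_30_P01021588 placed J1-2i and TKO-2i in opposite order.

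On its bright probe, H19 did not differ by the test between the lines in serum. TKO-serum differed from J1-serum by -0.21 (SE 0.31, adjusted p = 0.67) and 3B3-3l-serum from J1-serum by 0.54 (SE 0.31, adjusted p = 0.18). The other 5 tested probes had higher means in TKO-serum than in J1-serum, all under the fold limit. The gap was widest on A_30_P01028007, at 1.64 against 0.90. The feeder-free serum cultures of TKO and 3B3-3l held H19 at a log2 level of 4.08 to 4.91 on the bright probe, while their fibroblast lists lay below that of J1-serum. Within slide 1, where J1 and TKO were both present in both media, H19 changed by -4.95 in J1 and by -6.32 in TKO, so the fall was about as large within a slide as over all arrays. The primitive endoderm list, of which 10, 6 and 4 of 10 genes fell in J1, TKO and 3B3-3l, and the fibroblast list, of which 14, 7 and 6 of 16 fell and 0, 0 and 1 rose, moved with H19 in the 2i comparison, where 12.7%, 9.12% and 7.98% of all named genes fell. So did the trophoblast list, of which 6, 4 and 5 of 10 fell and 1, 1 and 0 rose. Their part in it was not tested.

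Igf2, the paternally expressed growth factor of the same domain, was dim nearly everywhere. Its level was -1.26, -2.73, -2.86 and -3.26 in J1-serum and -4.51, -4.98 and -5.07 in J1-2i. In TKO it was -3.98 and -3.49 in serum and -4.51, -3.92 and -3.55 in 2i. In 3B3-3l it was -1.32 and -0.81 in serum and -3.95 and -4.14 in 2i. The probe was well above background on 3 arrays only, J1-serum replicate 1 and both 3B3-3l-serum arrays, and these 3 lay on the third slide. The probe was tested only because every 3B3-3l-serum array had it well above background, so calls with this group are not independent of that choice. Since it was well above background on no 2i array, its fall in 2i has only a lower bound, at least 1.85-fold in J1 (measured log2 difference -2.32, SE 0.40, adjusted p = 3.2e-04) and at least 2.39-fold in 3B3-3l (measured -2.98, SE 0.52, adjusted p = 8.9e-04). In J1 that bound rests on 1 array, since replicate 1 in serum alone was well above background, and without it no fold could be given (the measured difference was then -1.90 and still called). In TKO, both media were below background and no fold can be given (-0.26, SE 0.47, adjusted p = 0.72).

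Between the lines in serum, Igf2 was called lower in TKO than in J1 (measured -1.21, SE 0.45, adjusted p = 0.0498, at least 1.84-fold, resting on the same array), a call lost in 18 of 27 alternative settings. It was called higher in 3B3-3l than in J1 (1.46, SE 0.45, adjusted p = 0.018) although the groups overlapped, since J1-serum replicate 1 at -1.26 lay between the 3B3-3l arrays. With the slide as a block that difference was 0.19 (adjusted p = 0.76). Against TKO, Igf2 in 3B3-3l-serum was at least 5.08-fold higher (measured 2.67, SE 0.52, adjusted p = 0.0024), and 1.05 (adjusted p = 0.20) with the slide as a block. That block also gave a called -1.75 for 3B3-3l against TKO in 2i, where both groups were below background. The calls of 3B3-3l-serum against J1 and TKO use the group through which the probe came to be tested. The trophoblast list was also highest in 3B3-3l-serum, at a mean log2 level of -0.31 to -0.17 per array with 9 to 10 of 10 genes well above background, against -1.58 to -1.19 in J1-serum and -1.85 to -1.54 in TKO-serum. Of its 10 tested genes, 6 were called higher in 3B3-3l than in J1 and 5 higher than in TKO, and the part of such cells in the Igf2 level was not tested. In the 3 comparisons of lines in serum, 16.6% (TKO against J1), 19.5% (3B3-3l against J1) and 10.8% (3B3-3l against TKO) of all named genes were called. The arrays on which Igf2 was well above background were thus the serum arrays of 1 slide, and the part of the slide was not tested beyond this block.

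Kcnq1ot1, the antisense RNA of the Kcnq1 domain, was the member that rose in J1. Its level was -3.83, -3.58, -3.13 and -3.21 in J1-serum, well above background on none of the 4 arrays, and -2.21, -2.64 and -1.26 in J1-2i, well above background on 2 of 3. In TKO it was -1.53 and -2.05 in serum and -1.86, -1.60 and -0.77 in 2i. In 3B3-3l it was -1.34 and -0.997 in serum and -1.24 and -1.94 in 2i. All of the 12 arrays outside J1-serum lay above all 4 of J1-serum. The rise in J1 was at least 2.17-fold (measured log2 difference 1.40, SE 0.34, adjusted p = 0.0044) and measured 0.92, below the fold limit, under normexp background correction. In TKO the change was 0.38 (SE 0.41, adjusted p = 0.52) and in 3B3-3l -0.42 (SE 0.45, adjusted p = 0.61).

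In serum, the TKO level of Kcnq1ot1 was above that of J1 by at least 2.57-fold (measured 1.65, SE 0.39, adjusted p = 0.0046) and the 3B3-3l level by at least 3.96-fold (measured 2.27, SE 0.39, adjusted p = 4.0e-04). The first of these calls was lost without TKO-serum replicate 1 (1.39, adjusted p = 0.066). In 2i no difference between lines was called, TKO differing from J1 by 0.63 (SE 0.37, adjusted p = 0.25) and 3B3-3l by 0.45 (SE 0.41, adjusted p = 0.41). A second Kcnq1ot1 probe was well above background on no array, so the result rests on 1 probe. Kcnq1ot1 was low in the group that had feeder cells and the highest fibroblast level, and the part of the feeder RNA in its level was not tested.

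Cdkn1c, which encodes the cyclin-dependent kinase inhibitor p57, is the best known target of Kcnq1ot1. Its level in J1-serum was 2.32, 2.46, 2.52 and 2.68 and in J1-2i -2.07, -1.85 and -1.94. In TKO it was 2.00 and 2.02 in serum and -2.38, -2.22 and -2.21 in 2i. In 3B3-3l it was 1.09 and 1.18 in serum and -3.25 and -2.84 in 2i. The fall was 21.8-fold in J1 (-4.45, SE 0.12, adjusted p = 3.1e-11) and 19.4-fold in TKO (-4.28, SE 0.14, adjusted p = 4.0e-10), with the probe well above background on 2 of 3 and 1 of 3 of the 2i arrays. In 3B3-3l, well above background on neither 2i array, it was at least 11.0-fold (measured -4.18, SE 0.15, adjusted p = 2.5e-09). The response of TKO differed from that of J1 by 0.17 (SE 0.18, adjusted p = 0.55), which did not pass the test. That of 3B3-3l, a bound, has no measured difference from J1. Serum and 2i arrays were apart in every line.

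Cdkn1c was called lower in 3B3-3l than in J1 in both media, and in neither was 3B3-3l called against TKO. Against TKO it differed in 3B3-3l by -0.87 in serum and a measured -0.78 in 2i, with an adjusted p of at most 0.05 but under the fold limit. In 3B3-3l-serum it was 2.57-fold lower than in J1-serum (-1.36, SE 0.13, adjusted p = 3.6e-06), and within the third slide, against J1-serum replicate 1, the difference was -1.19. In 3B3-3l-2i it was at least 1.29-fold lower than in J1-2i (measured -1.09, SE 0.14, adjusted p = 7.0e-05), a call lost under normexp background correction (-0.48), with the slide as a block (-0.86) and without 3B3-3l-2i replicate 1 (-0.88). In TKO-serum it was 0.49 lower than in J1-serum (log2 difference -0.49, SE 0.13, adjusted p = 0.010), under the fold limit.

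Phlda2, a small pleckstrin homology domain protein that restrains placental growth, fell less steeply and stayed well above background on all 16 arrays. Its level was 3.63, 3.79, 4.02 and 3.98 in J1-serum and 2.30, 2.04 and 2.08 in J1-2i. In TKO it was 3.38 and 3.75 in serum and 1.41, 1.38 and 1.39 in 2i. In 3B3-3l it was 2.79 and 3.24 in serum and 0.40 and 0.70 in 2i. Serum and 2i arrays did not overlap in any line. In J1 the fall was 3.29-fold (-1.72, SE 0.14, adjusted p = 5.8e-07), 4.50-fold in TKO (-2.17, SE 0.17, adjusted p = 7.5e-07) and 5.49-fold in 3B3-3l (-2.46, SE 0.19, adjusted p = 8.3e-07). In 2i, Phlda2 was 3.00-fold lower in 3B3-3l than in J1 (-1.59, SE 0.17, adjusted p = 2.0e-05), and in TKO the difference from J1 was -0.75 (SE 0.15, adjusted p = 0.0038), under the fold limit. The 2i levels of the 3 lines stood in the order J1, TKO, 3B3-3l with no overlap between neighbours. The response in 3B3-3l differed from that in J1 by -0.74 (SE 0.24, adjusted p = 0.035), again under the fold limit.

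**Figure D3:**
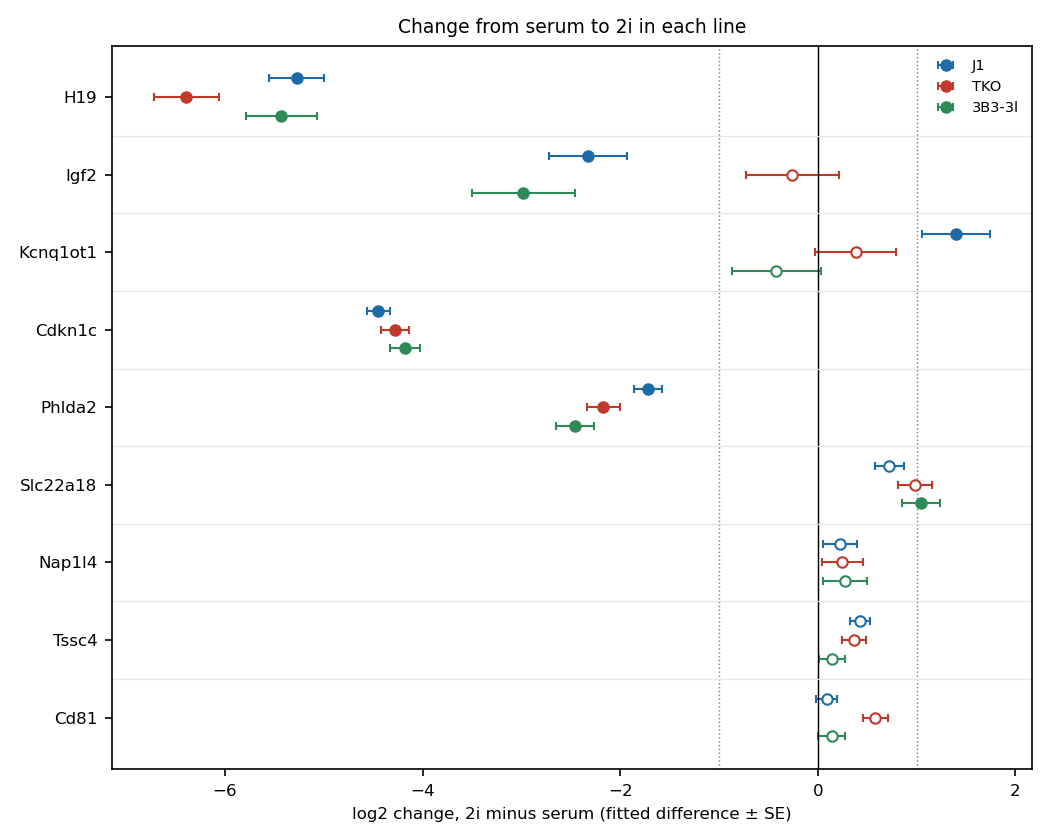
Points give the fitted log2 change from serum to 2i (x axis) of the 9 genes (y axis) in J1, TKO and 3B3-3l, with SE as bars. They are filled where the adjusted p was 0.05 or less and the change 2-fold or more (dotted lines). H19, Cdkn1c and Phlda2 lay left of the dotted line in all 3 lines, and Kcnq1ot1 and Igf2 were the genes whose points differed most by line.

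Slc22a18, a member of the organic cation transporter family, was higher in 2i than in serum on average and differed by line in both media. Its level was -0.05, 0.16, -0.09 and -0.07 in J1-serum and 0.75, 0.66 and 0.71 in J1-2i. In TKO it was -2.20 and -1.56 in serum and -0.997, -0.77 and -0.92 in 2i. In 3B3-3l it was -1.86 and -1.97 in serum and -0.65 and -1.08 in 2i. Every array of J1 lay above every array of the other lines in the same medium. In serum Slc22a18 was 3.65-fold lower in TKO (-1.87, SE 0.17, adjusted p = 2.2e-06) and 3.73-fold lower in 3B3-3l (-1.90, SE 0.17, adjusted p = 1.6e-06). In 2i it was 3.04-fold lower in TKO (-1.60, SE 0.16, adjusted p = 1.4e-05) and 2.97-fold lower in 3B3-3l (-1.57, SE 0.18, adjusted p = 2.6e-05). TKO and 3B3-3l differed from each other by -0.03 in serum (SE 0.19, adjusted p = 0.92) and 0.03 in 2i (SE 0.18, adjusted p = 0.92). These 4 calls against J1 held in all 28 alternative settings, and within slides the differences were -1.80 for TKO on slide 1 and -1.87 for 3B3-3l on slide 3 in serum. No slide held both J1-2i and 3B3-3l-2i arrays.

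The 2i change of Slc22a18 was 0.72 in J1 (SE 0.15, adjusted p = 0.0012), 0.98 in TKO (SE 0.18, adjusted p = 7.8e-04) and 1.05 in 3B3-3l (SE 0.19, adjusted p = 0.0013). Only the last, a 2.07-fold rise, passed the fold limit, and it was lost in 4 of 28 settings, so the lines were not shown to differ (0.26, SE 0.23, adjusted p = 0.46 for TKO against J1, and 0.33, SE 0.24, adjusted p = 0.36 for 3B3-3l against J1).

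**Figure D4:**
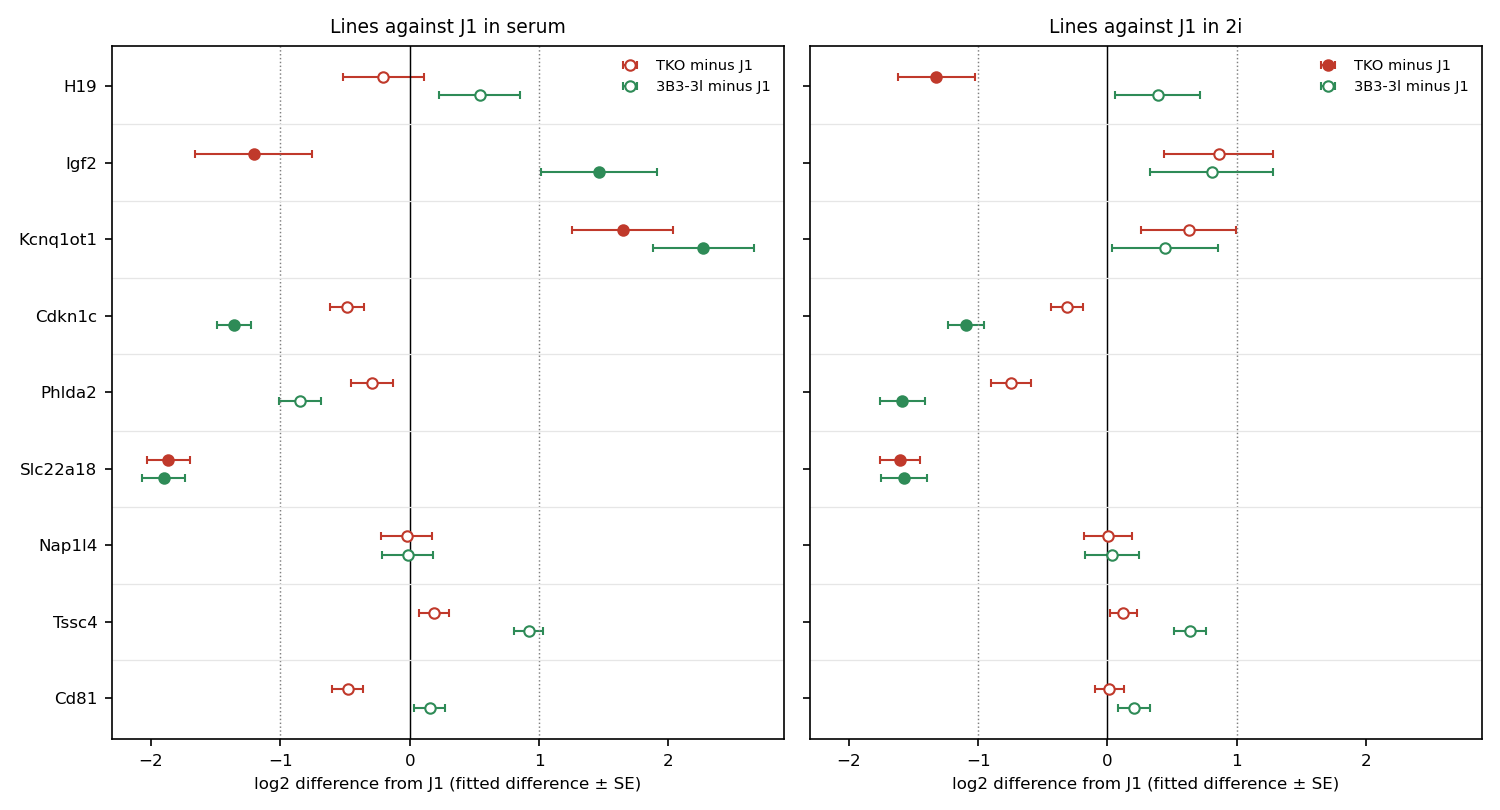
Points give the fitted log2 difference from J1 (x axis) of TKO and 3B3-3l for the 9 genes (y axis), in serum on the left and in 2i on the right, with SE as bars. They are filled where the adjusted p was 0.05 or less and the change 2-fold or more (dotted lines). Slc22a18 was lower in both lines and both media, and Kcnq1ot1 was called higher in serum and not in 2i.

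The outer genes of the Kcnq1 domain were called by limma in 0 of 33 tests (3 genes in 11 comparisons), where 7.43% to 22.8% of all named genes were called per comparison, although 10 of these had an unadjusted p under 0.05 and the same 10 an adjusted p of at most 0.05, all with changes under 2-fold. Tssc4 passed the fold limit once, under normexp background correction (1.04 for 3B3-3l against J1 in serum). The level of Nap1l4, a histone chaperone, ran from 2.11 to 3.11 over the 16 arrays on its brighter probe, and its 2i changes were 0.23, 0.25 and 0.28 in J1, TKO and 3B3-3l. Its dimmer probe ran from -0.38 to 1.67 and was not called either. Tssc4, a component of the spliceosome assembly machinery, had a mean level in serum of 1.74 ± 0.18 (SD, n = 4) in J1. The TKO mean was 1.92 ± 0.07 (SD, n = 2) and the 3B3-3l mean 2.66 ± 0.01 (SD, n = 2), and the log2 difference of 3B3-3l from J1, 0.92, was under the fold limit (SE 0.11, adjusted p = 3.0e-05). Cd81, a tetraspanin of the cell surface, had levels from 4.88 to 5.74 and was saturated on 1 array, J1-serum replicate 1. It was lowest in TKO-serum, at 4.88 and 4.96, where it was 0.58 below TKO-2i (2i change 0.58, SE 0.13, adjusted p = 0.0032).

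Between the lines, 3 of the 9 genes were called for TKO against J1 in serum and 2 in 2i, beside 16.6% and 7.43% of all named genes. For 3B3-3l against J1 the counts were 4 in serum and 3 in 2i, beside 19.5% and 14.5%. For 3B3-3l against TKO they were 1 in serum (Igf2, beside 10.8%) and 1 in 2i (H19, beside 10.1%, 3.27-fold higher in 3B3-3l, log2 difference 1.71, SE 0.33, adjusted p = 0.0021, and 1.29 with adjusted p = 0.13 with the slide as a block, on the bright probe, while A_30_P01021588 gave 0.48). The difference of the 2i responses was called for 1 of 9 in TKO against J1 (Igf2) and 1 of 9 in 3B3-3l against J1 (Kcnq1ot1), beside 15.4% and 17.3%. These comparisons share arrays, those with J1 the J1 arrays and those of 3B3-3l with TKO the arrays of these lines, and are not independent of each other.

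The genes between and beside the members did not move as a block. In the list of 12 neighbours of H19 and Igf2, 9 were tested and 1 fell in J1 (Tnni2, a fast muscle troponin, 2.99-fold, -1.58, SE 0.50, adjusted p = 0.019), 0 in TKO and 1 in 3B3-3l (Tnnt3, measured -1.92). The count of 0 in TKO is by limma, with an unadjusted p under 0.05 for 3 of the 9. Krtap5-1, a keratin-associated protein gene, and Lsp1 changed by -0.98 and -0.73 in J1 and were not called. Ins2 and Th, the direct neighbours of Igf2, changed by -0.22 to 0.23 in 2i over the 3 lines. In the list of 14 genes in and beside the Kcnq1 domain, 11 were tested, and 2 rose and 3 fell in J1, 2 rose and 2 fell in TKO and 3 fell in 3B3-3l, beside 22.8%, 15.9% and 13.6% of all named genes called. Ascl2, an imprinted trophoblast regulator, fell in all 3 lines (2.60-, 3.35- and 5.35-fold). So did Fgf15, a growth factor gene outside the domain, by at least 11.5-, 45.6- and 3.43-fold. Osbpl5, an oxysterol-binding protein gene next to Nap1l4, fell 4.60-fold in J1 and 3.20-fold in 3B3-3l, and its change in TKO was -0.51 (SE 0.21, adjusted p = 0.085). Kcnq1 itself changed by a measured -0.77, -0.54 and -1.86 and was not called, and it was well above background on 0 of 2 arrays in 3B3-3l-2i.

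**Figure D5:**
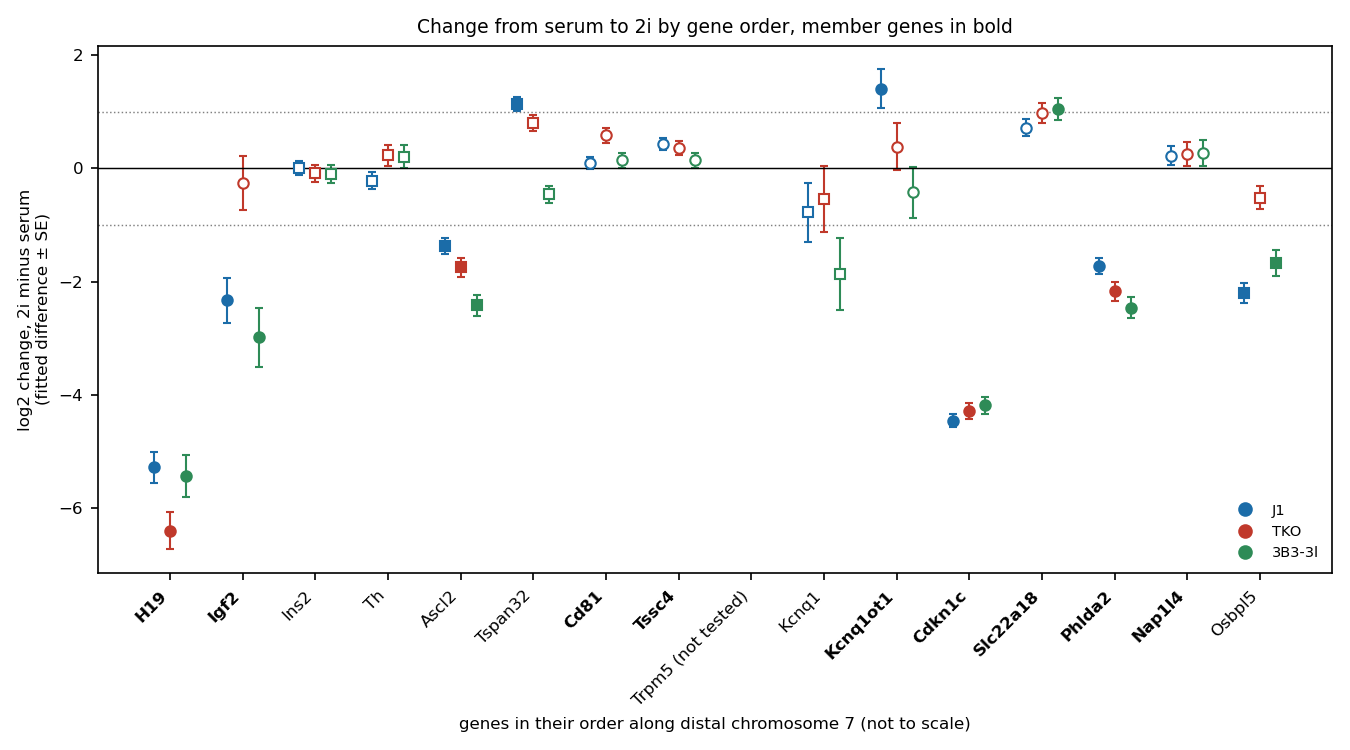
Points give the fitted log2 change from serum to 2i (y axis, SE as bars) of the member genes (circles, names in bold) and their tested neighbours (squares), in their order along distal chromosome 7 and not to scale. Filled points were called, and Trpm5 was not tested. Genes with large falls, such as Cdkn1c and Phlda2, stood beside genes that did not fall, such as Slc22a18.

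Imprinted genes elsewhere in the genome were listed beside the members. Of 37 listed, 28 were tested, and 3 rose and 8 fell in J1, 2 rose and 10 fell in TKO and 2 rose and 9 fell in 3B3-3l, beside 12.7%, 9.12% and 7.98% of all named genes that fell, with median log2 changes of -0.02, -0.27 and -0.67. Nnat, a paternally expressed brain proteolipid gene, fell by at least 8.72-, 7.54- and 11.5-fold in J1, TKO and 3B3-3l. Dlk1, a paternally expressed Notch ligand relative, fell 20.9-fold in J1, where 1 of the 2i arrays was well above background. It fell 5.27-fold in 3B3-3l, and in TKO by at least 28.9-fold. Peg3, Sgce, Magel2 and Slc38a4 also fell in all 3 lines, Slc38a4 by 3.10-, 14.8- and 7.75-fold. Plagl1, a zinc finger gene, was the one that rose in all 3 (9.38-, 3.53- and 6.77-fold). Dcn, which is on the fibroblast list too, fell 19.6-fold in J1. Against J1 in serum, 11 of the 28 were higher and 2 lower in TKO, and 13 higher and 1 lower in 3B3-3l, beside 16.6% and 19.5% of all named genes called in either direction.

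Of 18 factors known to act at imprinting control regions, all tested, 1 rose and 1 fell in J1, 1 rose and 1 fell in TKO and 2 fell in 3B3-3l, beside 22.8%, 15.9% and 13.6% of all named genes called. Uhrf1, which guides Dnmt1 to replicating DNA, rose 2.26-fold in J1 and 2.13-fold in TKO. Ctcfl, the testis relative of CTCF, fell at least 1.94-fold in J1 and at least 25.0-fold in TKO. Setdb1, a histone methyltransferase, changed by 0.91, 0.69 and 0.43. Ctcf itself changed by 0.24, 0.19 and -0.02.

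Of 17 genes of the Igf pathway, 14 were tested, and 2 rose and 4 fell in J1, 1 fell in TKO and 6 fell in 3B3-3l, beside the same 22.8%, 15.9% and 13.6%. Igfbp3, a carrier of circulating Igf, fell in all 3 lines (10.2-fold in TKO, and by bounds of at least 6.19-fold in J1 and 35.3-fold in 3B3-3l). Igfbp6, which binds Igf2 by preference, fell at least 11.5-fold in J1 and at least 4.29-fold in 3B3-3l and was below background in TKO in both media, as Igf2 was. Igfals, the acid-labile subunit of the Igf complex, rose at least 3.13-fold in J1. Among 11 relatives of Cdkn1c and Phlda2, 10 were tested, of which 1 rose and 2 fell in each line, beside those percentages. Ccnd2, cyclin D2, fell 22.1-fold in TKO, 10.1-fold in 3B3-3l and, as a bound, at least 53.7-fold in J1. Phlda1, the relative of Phlda2, fell at least 19.1-fold, 5.94-fold and 6.65-fold. Cdk2 rose 2.05-fold in J1, and its changes in TKO and 3B3-3l, 0.62 and 0.72, were under the fold limit.

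Markers of other cell types were read beside the members, and in 2i most of those called were lower, where 12.7%, 9.12% and 7.98% of all named genes fell. Of the fibroblast list, Acta2, smooth muscle actin, fell 94.2-, 14.8- and 21.2-fold in the lines J1, TKO and 3B3-3l, and Tagln, transgelin, 37.0-, 19.7- and 57.4-fold. Col1a1, a collagen chain, fell at least 60.2-fold in J1 and 16.3-fold in 3B3-3l, and its change in TKO was -0.58 (adjusted p = 0.33). Col1a2 (34.3-, 2.34- and at least 9.24-fold) and S100a4 (27.7-, 3.20- and 3.55-fold) fell in all 3 lines. Pdgfrb, a growth factor receptor gene, was the one on that list that rose in 3B3-3l (log2 change 1.81, SE 0.33, adjusted p = 0.0012), and it fell in J1 (-1.34). Of the primitive endoderm list, the transcription factor gene Gata6 fell 6.71-fold in TKO and, as bounds, at least 49.4-fold in J1 and 1.86-fold in 3B3-3l, and Cubn, an endocytic receptor gene, at least 66.7-, 5.91- and 1.10-fold. Sox7 and Dab2 were called lower in all 3 lines too (at least 17.2- and 11.9-fold in J1), but in 3B3-3l both media were below background. Of the trophoblast list, Plac1 fell at least 1.83-, 3.22- and 3.13-fold, Esx1 5.73-fold in J1 and at least 2.49- and 2.58-fold in the others, and Gata3 was called lower in all 3 lines, with both media below background in J1. Tpbpa fell 4.89-fold in J1, and Cdx2 fell at least 1.59-fold in J1 and rose at least 3.00-fold in TKO. Of 8 mesoderm markers 5 were tested, and 2 fell in J1, Pdgfra (at least 9.52-fold, also on the primitive endoderm list) and Msgn1 (at least 1.55-fold), while Kdr changed by -0.80 and was not called. In TKO and in 3B3-3l 1 mesoderm marker rose and 0 fell by limma, with an unadjusted p under 0.05 for 1 of 5 in each. Of the 10 mESC markers, 2 rose and 1 fell in J1, 2 fell in TKO and 1 fell in 3B3-3l. Utf1 fell in all 3 lines (2.88-, 3.35- and 3.16-fold), and Nanog and Esrrb rose 2.64- and 2.10-fold in J1.

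The genes most like each member were found from the 6 group means, each centred on its own mean, as those at the smallest root mean square distance among 13857 genes. For H19 they were Acta1, AU015836, Tagln, Plac8 and Cnn1, at 0.51 to 0.71 log2 units. Of the 13857, Cdkn1c stood at rank 26 on this scale, Phlda2 at 349 and Igf2 at 485, so other members were not among the genes just listed for H19. The distance is not scaled for the size of the change. For Igf2 they were Septin4, Pcdh18, Irs2, Mab21l4 and Nuak1 (0.18 to 0.37), of which Pcdh18 and Mab21l4 were well above background on 2 arrays. For Cdkn1c they were Tspan7, Dll1, Aass, Neurod1 and Metrnl (0.37 to 0.59), and for Phlda2 Kcnk1, Notch3, Cplx1, Asphd1 and Prr36 (0.13 to 0.31). Several of these were below background on many arrays, so parts of their patterns are not measured levels. Acta1, AU015836, Cnn1, Dll1, Neurod1 and Metrnl were well above background on 8 of the 16 arrays, Cplx1 on 6 and Asphd1 on 5. The 6 points share arrays and slides, and these distances are a description.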

How the data were processed

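Total RNA was hybridised to one-colour Agilent 8x60K arrays, and the authors deposited the scanner files of Agilent Feature Extraction 11.5.1.1 (its version per the labels), whose background-corrected intensity per spot was used here. A table of log2 values that the authors made by normalising the arrays was also deposited. It served as an alternative, since only 3 of its 16 columns resembled their own array most, though all 16 resembled an array of the same group. Intensities of 55681 non-control probes were averaged over spots, without spots flagged as uneven or outlying, taken as log2 and centred on the 75th percentile of each array, which lay at an intensity of 1019 to 1797. The number of arrays limits the precision. Probes that no group had well above background on all its arrays were not tested (leaving 27126 probes, 888 of them lacking a value on some array). Probes were named through RefSeq identifiers (that of H19 through a supplementary table of the study), and a gene was read by its brightest probe saturated on no array, or its brightest where all were. limma 3.58.1 (R 4.3.3) fitted the 6 group means over all 16 arrays in 1 model, and calls needed an adjusted p of at most 0.05 (Benjamini-Hochberg over all tested probes) and a 2-fold change. For a group well above background on no array, a fold is a bound, computed on each array against the higher of the lowest signal flagged well above background and the probe's own signal. Some other folds rest on only 1 array above background in the 2i group. These include Tnni2, Dlk1, Dcn and Tpbpa in J1, and Gata6 and Igfbp3 in TKO. In 3B3-3l they include Osbpl5, Ccnd2, Col1a1 and S100a4. On simulated data of 26238 probes, 85 of 100 changes of 1.5 log2 units and 97 of 100 of 3 were called in the J1 comparison, and 70 and 94 in that of 3B3-3l. False calls numbered 1 and 9. The simulated noise was normal, few probes changed and there was no background floor, so these rates do not carry over to dim probes. Beside the 9 genes, all probes of which were reported, the text names from each gene list the 3 genes that changed most in J1 in 2i and any called one way in all 3 lines. Other genes named (Ins2, Th, Kcnq1, Tnnt3, Pdgfrb, Ctcf and the Dnmt genes) were chosen after their values were seen. The members, lists and tests were chosen with earlier results of these data known. Alternatives covered background correction, scaling, the filter on dim probes, the slide and the replicate number as blocks, the test and leaving out each array.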

Additional observations from a re-analysis of the deposited data

Results flagged for a closer look

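Of the members, Igf2 and Kcnq1ot1 responded differently to 2i in different lines by the test of the difference itself, among 9 genes and 2 such differences each. Igf2 changed less in TKO than in J1, with a difference of the responses of 2.07 on the log2 scale (SE 0.62, adjusted p = 0.027, limma). Its probe was well above background on 1 of 12 arrays in this comparison, J1-serum replicate 1, so the value has no measured size, and the call was lost in 5 of 26 settings, among them without TKO-serum replicate 1 (1.82, adjusted p = 0.12). Kcnq1ot1 rose in J1 by a measured 1.40 and changed by -0.42 in 3B3-3l, a measured difference of -1.82 (SE 0.57, adjusted p = 0.031, limma). Its probe was well above background on none of the 4 J1-serum arrays, so this difference has no exact size. That call was lost in 7 of 25 settings, among them normexp background correction (-1.22, adjusted p = 0.053) and without J1-2i replicate 3 (-1.43, adjusted p = 0.058). By Dixon's criterion, which chance passes in about 1 of 20 groups, a single array stood apart in 2 of the 15 sets of 4 J1-serum values, 1 set for each tested probe of the members. On the H19 probe A_30_P01028007 replicate 2 lay lowest, at 0.77 against 0.93 to 0.95 on the others (gap over range 0.886). On the dimmer Nap1l4 probe, A_52_P634822, replicate 1 lay lowest, at 0.02 against 0.92 to 1.07 (gap over range 0.857). Neither probe was the one that read its gene.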

How the results depend on the processing

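No called value changed its direction in any setting. Of 306 recounts of the called members, 269 stayed within 1.5 times the count reported and 37 did not. Of 2699 single values, 52 lost and 35 gained a call, and 77 that were not called moved by more than 1 SE. H19, Cdkn1c and Phlda2 kept their falls in 2i in all 3 lines under every setting in which they were tested (27, 27 and 28 settings), except that the unmoderated t-test called none of the 9 in 3B3-3l (0). That test called 1 for TKO against J1 in 2i and 0 for 3B3-3l against TKO in serum and 0 in 2i. Asking for a signal above background on all 16 arrays left 5 members, of which 1 was called in J1, 1 in TKO and 2 in 3B3-3l from serum to 2i, 1 for TKO against J1 in serum and 1 in 2i, 1 for 3B3-3l against J1 in serum, 0 for 3B3-3l against TKO in serum and 0 in 2i, and 0 for each difference of responses, because fewer genes were tested. The difference of 3B3-3l from J1 had 0 calls under normexp background correction, 0 with no filter on dim probes and 0 in the authors' table, which lacks the Kcnq1ot1 probe. Without a fold limit, 6 were called in TKO in 2i, 5 for TKO against J1 in serum, 5 for 3B3-3l against TKO in serum and 4 in 2i, and 2 for each difference of responses. With the slide as a block, 3B3-3l against TKO in serum had 0. The third slide joins the others only through J1-serum replicate 1, so this setting rests on that array for 3B3-3l. Leaving out 1 array gave 5 to 5 calls in J1, 3 to 4 in TKO and 4 to 5 in 3B3-3l, 1 to 3 and 2 to 2 for TKO against J1 in serum and 2i, 4 to 4 and 2 to 4 for 3B3-3l against J1, 1 to 1 and 1 to 1 for 3B3-3l against TKO, and 0 to 2 and 0 to 1 for the differences of TKO and 3B3-3l from J1.

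Replicate numbers were shared between groups, but nothing in the labels pairs them. The deviations of same-numbered arrays correlated at 0.15 to 0.29 in 3B3-3l in 2i against serum and against J1 in serum. They correlated at -0.13 to 0.085 in the other comparisons. Where both groups had 2 arrays, the 2 pairs mirror each other and give 1 value. Since the labels do not pair them, the numbers were not taken as pairs. With the replicate number as a block, the difference of TKO from J1 had 2 calls in place of 1, Kcnq1ot1 (-1.39) being added, and Igf2 in 3B3-3l against J1 in serum was not called (1.16, adjusted p = 0.089). The median of all tested probes differed by 0.15 between 3B3-3l and J1 in serum and by 0.11 between 3B3-3l and TKO in serum. Dim signal limits what can be read, since Igf2 was well above background on 3 arrays and Kcnq1ot1 on 11.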
